A study of Mus musculus with 12 samples.

Results

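Cells from the peritoneal ascites of mice that carried FAKKD ovarian tumour cells were compared with ascites cells from mice that carried FAKWT tumour cells and received no treatment. The members are the samples titled KTFAKKD (replicates 3, 4 and 5, here FAKKD) and the untreated samples titled KTFAKWT (replicates 1, 2 and 3, here FAKWT), 3 of each, chosen by their titles, which makes 6 of the 12 samples in the series. In all of them 5000000 tumour cells had been placed in the peritoneal cavity, the ascites was collected on day 21, and RNA was taken from 2000000 ascites cells, so tumour and host cells were measured together. RNA was counted with a NanoString immune panel, in which barcoded probes count RNA molecules without amplification. The remaining samples were FAKWT with a FAK inhibitor given by gavage (100 mg per kg, 3 samples) and FAKWT with its vehicle (3 samples). The labels do not expand the letters KD, and they give no strain or age of the mice and no account of how the tumour lines were made. The 750 genes did not include Ptk2, which encodes FAK, so the label FAKKD was not checked against its RNA. Of markers of the labelled tissue, Epcam, Msln and Muc1 were counted in each of the 6 samples.

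Focal adhesion kinase is a tyrosine kinase that sits at the contacts where integrins bind the extracellular matrix and passes their signals on to growth and survival pathways. CD155, encoded by Pvr, is a nectin-like surface protein that is bound by Cd96. Like nectin-2, it is also bound by TIGIT, an inhibitory receptor of T and NK cells. Ascites in ovarian cancer holds tumour cell clusters among macrophages, lymphocytes, mast cells and other peritoneal cells. By its title the series concerns FAK in tumour cells and the CD155/TIGIT axis, and the comparison asks how the ascites differed when the tumour cells were FAKKD.

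Each deposited log2 value was a whole count multiplied by 1 factor per sample, and recovered counts summed to between 622954 and 755282 in FAKKD samples and between 624638 and 725943 in FAKWT samples. The factor was 1.46 ± 0.19 in FAKKD samples and 0.753 ± 0.085 in FAKWT samples (SD, n = 3 each), and the groups did not overlap. The median gene therefore had a deposited log2 value of 7.69 to 7.74 in FAKKD samples, against 6.54 to 6.74 in FAKWT samples. Values are given relative to the panel, meaning after each sample was shifted to a common median, with the deposited scale beside them for the calls of gene lists and for some genes. For every gene the deposited log2 fold change is the relative one plus 1.05. A gene called higher relative to the panel was in nearly every case bound to be higher as deposited, so the second scale adds information mainly for genes that were lower. Of the 750 genes, 142 had a mean recovered count under 20 over the 6 samples. Within groups the median SD relative to the panel was 0.20 in FAKKD samples and 0.18 in FAKWT samples over the 608 genes with higher counts. Vehicle and untreated FAKWT samples differed in 0 genes (0%) at an adjusted p of 0.05 in limma on either scale, with 99 genes at an unadjusted p under 0.05 relative to the panel.

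In FAKKD ascites most measured epithelial genes were lower and most MHC class II and B-cell genes higher, on both scales. Most NF-kB and MAP kinase genes were lower relative to the panel, but more of them were higher than lower as deposited. As deposited, 488 genes (65.1%) were higher and 71 (9.47%) lower in FAKKD than in FAKWT samples (limma, adjusted p under 0.05). Relative to the panel, 177 genes (23.6%) were higher and 259 (34.5%) lower. The same 177 genes were higher on both scales (23.6%), 71 were lower on both (9.47%), and 81 (10.8%) were higher as deposited but lower relative to the panel. Relative values of the 3 FAKKD samples lay above all 3 FAKWT samples in 188 genes (25.1%) and below all 3 in 271 genes (36.1%). The relative log2 fold change ran from -4.53 to 3.33, with a median of -0.10. Of the called genes 40.6% were higher relative to the panel, and this share was 56.5% (243 higher, 187 lower) when samples were instead shifted by the median of the genes left after removing the lowest 25% by level (the upper-gene shift), which moved the median log2 fold change to 0.22. It was 47.5% after quantile normalization, against 87.3% as deposited.

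**Figure D1:**
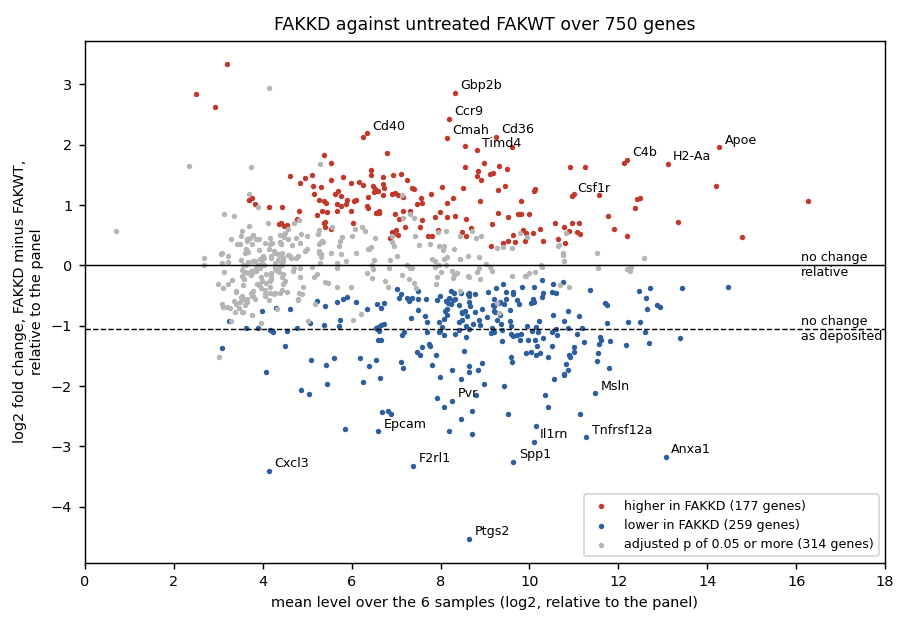
Log2 fold change of FAKKD minus FAKWT relative to the panel (vertical axis) against the mean log2 level over the 6 samples (horizontal axis), with 1 point for each of 750 genes. The 177 higher genes are red, the 259 lower genes blue and the others grey. The dashed line, 1.05 below 0, marks genes with no change as deposited, and the 71 genes lower on both scales all lie below it.

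Epithelial genes were lower in FAKKD ascites. Of 10 measured epithelial and tumour genes, 9 were lower relative to the panel and 1, the laminin-binding integrin subunit Itga6, did not pass (-0.10, adjusted p = 0.542). Their median relative log2 fold change was -2.13, against -0.10 over all genes. As deposited 7 were lower and 2 higher, and under the other scalings 8 or 9 were lower. The epithelial adhesion molecule Epcam had relative log2 values of 5.10, 5.06 and 5.51 in FAKKD samples and 8.18, 7.92 and 7.85 in FAKWT samples. Recovered counts were 30 to 51 in FAKKD and 207 to 284 in FAKWT, and the relative log2 fold change was -2.75 ± 0.19 (SE, adjusted p = 2.21e-07).

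Mesothelin, encoded by Msln and found on mesothelial cells and many ovarian tumours, had relative log2 values of 10.45, 10.47 and 10.33 in FAKKD samples, against 12.62, 12.52 and 12.45 in FAKWT samples. Its spread within each group was narrow, the groups were far apart, and the log2 fold change was -2.12 ± 0.10 relative to the panel and -1.06 as deposited (adjusted p = 1.55e-08 and 2.37e-06). The protease-activated receptor gene F2rl1 (-3.32 ± 0.18), the beta 4 integrin Itgb4 (-2.80 ± 0.17), the transmembrane mucin Muc1 (-2.71 ± 0.29) and E-cadherin (Cdh1, -1.96 ± 0.27) were also lower relative to the panel. Of integrin, matrix and adhesion genes 5 of 26 were higher and 9 lower, shares near those of all genes (23.6% higher, 34.5% lower). The 5 higher became 3 without FAKKD replicate 3 or without FAKWT replicate 1, and the counts were 10 higher and 6 lower with the upper-gene shift and 19 higher and 2 lower as deposited. The beta 3 integrin Itgb3 fell by 2.42 and the adhesion molecule Icam1 by 1.99 on the relative log2 scale, while Itga4, the integrin subunit that leukocytes use to bind Vcam1, rose by 1.53. In these bulk samples, fewer cells of a type and less RNA per cell cannot be told apart.

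Both measured CD155 family ligands were lower. The receptor genes Tigit and Cd96 had low counts, which were under 20 in every sample for Cd96 but not for Tigit. Pvr had relative log2 values of 7.10, 7.08 and 7.23 in FAKKD samples, against 9.48, 9.26 and 9.38 in FAKWT samples. The groups were separated by more than any spread within them, with a log2 fold change of -2.24 ± 0.17 relative to the panel (adjusted p = 3.36e-07) and -1.19 as deposited (adjusted p = 6.13e-06). Pvrl2, the gene of nectin-2, had 10.01, 9.88 and 10.10 in FAKKD samples and 11.84, 11.83 and 11.54 in FAKWT samples, a relative log2 fold change of -1.74 ± 0.12 (adjusted p = 2.28e-07). Tigit had recovered counts of 25, 24 and 22 in FAKKD samples, against 69, 29 and 36 in FAKWT samples, and its relative log2 fold change of -0.92 ± 0.37 did not pass (adjusted p = 0.0517; 0.14 as deposited, adjusted p = 0.737). FAKWT replicate 1 was the highest of the 6, and Tigit was -0.58 without it, while it passed with -1.18 without FAKWT replicate 2. Tigit also passed as lower in limma after quantile normalization (adjusted p = 0.0492) and without the lowest 25% of genes. The same held with the 6 samples alone and against untreated and vehicle FAKWT together. It did not pass with the other shifts or without the trend, so its call depended on the setting. Cd96 was counted 12, 19 and 16 times in FAKKD samples and 17, 19 and 9 times in FAKWT samples, with groups that overlapped relative to the panel (0.01 ± 0.41, adjusted p = 0.99). As deposited Cd96 was higher without overlap (1.06, adjusted p = 0.0301), a call lost without FAKKD replicate 4 or FAKWT replicate 1 or 3. The summed epithelial and tumour list moved with Pvr and Pvrl2, at 13.37 to 13.61 (log2) in FAKKD samples and 14.61 to 14.92 in FAKWT samples, and its part in their change was not tested.

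Ptgs2, the inducible cyclooxygenase of prostaglandin synthesis, was the gene with the lowest fold change. It had relative log2 values of 6.31, 7.16 and 5.68 in FAKKD samples, against 11.14, 10.91 and 10.68 in FAKWT samples. Recovered counts were 81, 128 and 57 in FAKKD samples and 2219, 1808 and 1472 in FAKWT samples, so the groups were far apart, and the log2 fold change was -4.53 ± 0.33 relative to the panel and -3.48 as deposited (adjusted p = 2.64e-07 and 2.78e-06). Il1rn, the secreted antagonist of the interleukin-1 receptor, had 8.71, 8.60 and 8.61 in FAKKD samples, against 11.70, 11.62 and 11.36 in FAKWT samples (-2.92 ± 0.13, adjusted p = 1.54e-08). The phospholipid-binding protein gene Anxa1 (-3.17 ± 0.16), the decoy receptor Il1r2 (-2.13 ± 0.35), the cytokine Lif (-2.20 ± 0.17) and the inflammatory protease Casp1 (-1.60 ± 0.09) were lower too.

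The interleukin-1 cytokines did not share that direction. Il1a had 8.03, 8.14 and 6.99 in FAKKD samples, against 5.61, 5.76 and 6.20 in FAKWT samples, higher in every FAKKD sample by a mean of 1.86 ± 0.30 (adjusted p = 1.57e-04). Il1b overlapped between the groups, at 8.10, 8.61 and 6.89 in FAKKD samples and 7.41, 8.80 and 7.46 in FAKWT samples (-0.03, adjusted p = 0.966). Of 24 interleukin-1, prostaglandin and acute inflammatory mediators, 6 were higher, a share near the 23.6% of all genes, and 12 lower relative to the panel, with a median of -0.29. The 6 became 3 without FAKKD replicate 3 or without FAKWT replicate 1, and were 10 with the shift by the mean. With the upper-gene shift 10 were higher and 10 lower, with a median of 0.03, and as deposited 12 were higher and 6 lower. The epithelial and tumour list was lower in the same samples, and its part in these changes was not tested.

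Neutrophil genes were divided. The chemokine Cxcl3 was counted 10, 2 and 8 times in FAKKD samples, against 98, 40 and 39 times in FAKWT samples, and its relative log2 fold change was -3.40 ± 0.52 (adjusted p = 1.15e-04). The related chemokine Cxcl2 had relative log2 values of 9.87, 10.35 and 8.63 in FAKKD samples and 8.31, 8.33 and 7.95 in FAKWT samples, and was higher without overlap (1.42 ± 0.33, adjusted p = 0.00255). Trem1, an activating receptor of myeloid cells, fell by 2.47 and Camp, an antimicrobial peptide of granules, rose by 1.5 on the relative log2 scale. Of 18 neutrophil chemokines and markers 2 were higher and 5 lower, shares below those of all genes (23.6% higher, 34.5% lower). The 5 lower became 3 without FAKKD replicate 3 or without FAKWT replicate 2. As deposited 5 were higher and 2 lower, against 65.1% and 9.47% of all genes. Their summed level overlapped between groups, at 11.68 to 12.50 in FAKKD samples and 11.54 to 12.61 in FAKWT samples.

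NF-kB and TNF receptor signalling genes were mostly lower relative to the panel, with 24 of 32 lower, 1 higher and 7 not passing, and a median of -0.64. Without FAKKD replicate 5 the 1 higher became 2, and 18 to 23 were lower under the other scalings. As deposited 19 were higher and 5 lower, against 65.1% and 9.47% of all genes, and 11 were called in opposite directions on the 2 scales. Tnfrsf12a, the receptor of the cytokine TWEAK, had relative log2 values of 9.89, 9.62 and 10.04 in FAKKD samples, against 12.94, 12.62 and 12.55 in FAKWT samples. It was lower in every FAKKD sample, by 2.85 relative to the panel and 1.80 as deposited (log2 fold changes of -2.85 ± 0.14 and -1.80). Irak2, a kinase of interleukin-1 receptor signalling (-2.46 ± 0.17), Nfkb2, a subunit of the non-canonical pathway (-1.88 ± 0.13), and Ltbr, the lymphotoxin beta receptor (-1.45 ± 0.11), were lower on both scales. Nfkbia, which encodes the NF-kB inhibitor I-kappa-B alpha, did not pass on the relative scale (0.31, adjusted p = 0.103), nor did the feedback regulator Tnfaip3 (-0.04, adjusted p = 0.918).

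MAP kinase genes and immediate early genes moved apart. Of 26 genes, 17 were lower and 5 higher relative to the panel, with a median of -0.85, and under the other scalings 15 to 17 were lower and 5 higher. As deposited more were higher than lower, with 12 higher and 4 lower and a median of 0.20. On that scale 65.1% of all genes were higher and 9.47% lower, with a median of 0.95. The kinase gene Mapk11 had 5.47, 5.8 and 5.54 in FAKKD samples, against 8.20, 7.99 and 7.88 in FAKWT samples (-2.42 ± 0.17, adjusted p = 2.64e-07). Dusp6, a phosphatase that switches off ERK kinases, had 10.38, 10.42 and 10.17 in FAKKD samples, against 11.71, 11.70 and 11.62 in FAKWT samples (-1.35 ± 0.09). Dusp4, of the same family, had 7.31, 5.62 and 7.49 in FAKKD samples and 9.76, 9.59 and 9.34 in FAKWT samples. FAKKD replicate 4 was the lowest, and without it the deposited log2 fold change of Dusp4 was -1.12 in place of -1.70. The 5 higher genes were the immediate early transcription factors Fos (1.18 ± 0.31), Jun (0.57 ± 0.15), Egr1 (1.07 ± 0.28), Egr2 (1.48 ± 0.37) and Egr3 (1.83 ± 0.24). Fos had 11.91, 12.17 and 10.68 in FAKKD samples, against 10.48, 10.75 and 9.99 in FAKWT samples. Egr1 had 10.61, 10.94 and 9.50 in FAKKD samples, against 9.21, 9.11 and 9.51 in FAKWT samples. FAKKD replicate 5 thus overlapped FAKWT in Fos and Egr1, and in Egr2 it was barely above (4.43 against 4.41 in FAKWT replicate 2). Summed levels of the epithelial and tumour list were lower in the same samples, and their part in the NF-kB and MAP kinase changes was not tested.

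Of 11 growth and proliferation genes 7 were lower and 1 higher relative to the panel, 6 lower and 3 higher with the upper-gene shift, and 4 lower and 6 higher as deposited. Over all genes 34.5% were lower and 23.6% higher relative to the panel, and 9.47% and 65.1% as deposited. Birc5, which encodes survivin and is active in dividing cells, had 7.14, 7.24 and 7.20 in FAKKD samples, against 9.85, 9.77 and 9.60 in FAKWT samples (-2.55 ± 0.17, adjusted p = 2.01e-07). The 3 FAKKD values lay within 0.1 of each other and far under the FAKWT values. The transferrin receptor Tfrc (-2.66 ± 0.15), the sphingomyelinase Smpd3 (-2.47 ± 0.09) and the transcription factor Myc (-1.52 ± 0.11) were lower on both scales, while the cell cycle kinase Cdk1 did not pass (0.04 relative to the panel).

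MHC class II genes, whose products carry peptides to CD4 T cells, were higher in FAKKD ascites. Of 11 measured genes 10 were higher on both scales, with a median relative log2 fold change of 1.49, and 10 were higher under every other scaling as well. The exception was the pseudogene H2-Ea-ps, counted 16 times or fewer in each sample. Professional antigen-presenting cells switch this class on through the transactivator encoded by Ciita, which acts on short promoter elements, among them the Y box, an inverted CCAAT element. The letters TGATTGG on either strand, the core of that element, were found in the 250 bases before the start of 5 of the 7 list genes with a RefSeq promoter entry (build GRCm38.p6), against 8.38% of 27025 genes. A longer form, CTGATTGG, was searched earlier and was found in 2 of the 7, against 4.43% of genes, and the shorter core was taken after that was seen. The last 120 bases before the start of 3 of the 5 are shown as examples of 2 chains of the peptide-presenting molecules and 1 chain of the loading factor DM, 5′ to 3′ on the gene's strand, with the core in capitals.
H2-Aa: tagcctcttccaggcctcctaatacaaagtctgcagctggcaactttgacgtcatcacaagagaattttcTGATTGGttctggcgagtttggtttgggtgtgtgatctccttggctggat
H2-Eb1: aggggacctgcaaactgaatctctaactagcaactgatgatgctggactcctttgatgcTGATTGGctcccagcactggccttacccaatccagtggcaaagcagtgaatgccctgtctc
H2-DMb1: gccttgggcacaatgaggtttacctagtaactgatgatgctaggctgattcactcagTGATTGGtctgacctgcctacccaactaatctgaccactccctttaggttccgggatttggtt

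They lie at chr17:34287824-34287943 on the minus strand (H2-Aa), chr17:34305747-34305866 on the plus strand (H2-Eb1) and chr17:34153071-34153190 on the plus strand (H2-DMb1). The core begins 50, 61 and 63 bases before the start. It is also in the 250 bases before H2-DMb2 and H2-Ob but not before H2-Dma or Ctss. A match in letters is a description of these promoters and says nothing about what bound them in these cells.

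H2-Aa, the alpha chain of the I-A molecule, had relative log2 values of 13.86, 14.37 and 13.62 in FAKKD samples, against 12.24, 12.24 and 12.34 in FAKWT samples. Every FAKKD sample was higher, with replicate 4 the highest, and the log2 fold change was 1.68 ± 0.20 relative to the panel and 2.73 as deposited (adjusted p = 1.40e-05 and 2.26e-06). Its partner chain H2-Ab1 had 12.87, 13.38 and 12.66 in FAKKD samples, against 11.21, 11.31 and 11.31 in FAKWT samples (1.69 ± 0.20). H2-Eb1, the beta chain of I-E, had 11.69, 12.02 and 11.48 in FAKKD samples, against 10.02, 9.99 and 10.28 in FAKWT samples (1.63 ± 0.18).

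The peptide-loading genes followed the same direction, H2-DMb1 with 9.83, 10.21 and 9.59 in FAKKD samples, against 8.08, 8.47 and 8.51 in FAKWT samples (1.52 ± 0.19). H2-Dma (1.56 ± 0.25), H2-DMb2 (0.77 ± 0.19) and the modulator H2-Ob (1.49 ± 0.28) were higher, as were the invariant chain Cd74 (1.31 ± 0.19) and the protease that trims it, Ctss (0.95 ± 0.10). Ciita itself had 7.05, 7.26 and 7.13 in FAKKD samples, against 5.91, 5.55 and 6.01 in FAKWT samples (1.32 ± 0.16, adjusted p = 1.44e-05). FAKKD replicate 4 had the highest value of H2-Aa, H2-Ab1, H2-Eb1, Cd74 and Ciita but the lowest of H2-Dma and H2-Ob among the FAKKD samples. Macrophage genes rose in the same samples (summed level 17.48 to 17.71 in FAKKD and 16.57 to 16.79 in FAKWT), as did B-cell genes (12.43 to 13.24 in FAKKD and 11.76 to 11.99 in FAKWT), and their part in the MHC class II change was not tested. MHC class I and loading genes gave 7 of 19 higher and 5 lower (14 and 2 as deposited), against 23.6% and 34.5% of all genes (65.1% and 9.47% as deposited). The proteasome subunits Psmd7 (-1.52 ± 0.11) and Psmb7 (-1.48 ± 0.12) and the loading factor Tapbp (-1.05 ± 0.11) were among the lower.

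Of 37 macrophage and monocyte genes 18 were higher, 6 lower and 13 did not pass relative to the panel, with a median of 0.54, and 29 were higher and 2 lower as deposited. Over all genes the shares were 23.6% higher and 34.5% lower relative to the panel, and 65.1% and 9.47% as deposited. Csf1r, the receptor that keeps macrophages alive, had 11.52, 11.50 and 11.55 in FAKKD samples, against 10.23, 10.55 and 10.35 in FAKWT samples (1.15 ± 0.10, adjusted p = 1.04e-06). The fractalkine receptor Cx3cr1 (2.12 ± 0.36), the scavenger receptor Cd36 (2.13 ± 0.33), the lipid carrier Apoe (1.96 ± 0.25), the lysozyme gene Lyz2 (1.06 ± 0.13) and the F4/80 gene Emr1 (0.61 ± 0.14) were higher. Cd68, a marker of most macrophages, overlapped between groups at 10.87, 10.88 and 10.72 in FAKKD samples and 10.78, 10.79 and 10.68 in FAKWT samples (0.07, adjusted p = 0.583).

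Several macrophage genes were lower. Osteopontin (Spp1) had 8.47, 7.82 and 7.74 in FAKKD samples, against 11.85, 10.78 and 11.15 in FAKWT samples (-3.25 ± 0.34), and tumour cells can also make it. The haemoglobin scavenger receptor Cd163 had 10.61, 10.60 and 10.77 in FAKKD samples, against 11.90, 11.55 and 11.64 in FAKWT samples, lower relative to the panel (-1.04 ± 0.11) and not passing as deposited (0.01, adjusted p = 0.884). The receptor kinase Axl fell by 1.43 relative to the panel. Timd4, a receptor of resident peritoneal macrophages that binds dying cells, had 9.28, 10.25 and 9.76 in FAKKD samples, against 7.83, 7.85 and 7.90 in FAKWT samples (1.91 ± 0.23, adjusted p = 1.48e-05). The monocyte receptor Ccr2 was counted 37, 10 and 68 times in FAKKD samples, against 5, 4 and 1 times in FAKWT samples, too few in FAKWT for its fold change to be read closely.

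Cd40, a costimulatory receptor of antigen-presenting cells, had 7.50, 7.41 and 7.39 in FAKKD samples, against 5.16, 5.41 and 5.15 in FAKWT samples, a narrow spread and a wide gap (2.19 ± 0.14, adjusted p = 1.61e-07). Of 31 complement genes 10 were higher and 6 lower (19 and 2 as deposited), and the median of -0.05 turned to 0.27 with the upper-gene shift and was 0.05 without FAKKD replicate 5. Among all genes 23.6% were higher and 34.5% lower (65.1% and 9.47% as deposited). C4b, a component of the classical pathway, had 13.12, 13.18 and 12.92 in FAKKD samples, against 11.43, 10.94 and 11.60 in FAKWT samples (1.75 ± 0.16). The recognition genes C1qa (1.10 ± 0.11) and C1qb (1.12 ± 0.10) were higher, while C1qbp, a mitochondrial protein named for binding C1q, was lower (-1.81 ± 0.13). Of 28 checkpoint receptors and ligands 5 were higher and 7 lower (20 and 1 as deposited), and the 5 became 8 without FAKWT replicate 2 and 11 with the upper-gene shift. The shares of 5 and 7 of 28 lay below those of all genes. Cd276, a ligand of the B7 family, fell by 1.60 and the don't-eat-me signal Cd47 by 0.95 relative to the panel, the second of them not passing as deposited (0.10, adjusted p = 0.162).

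**Figure D2:**
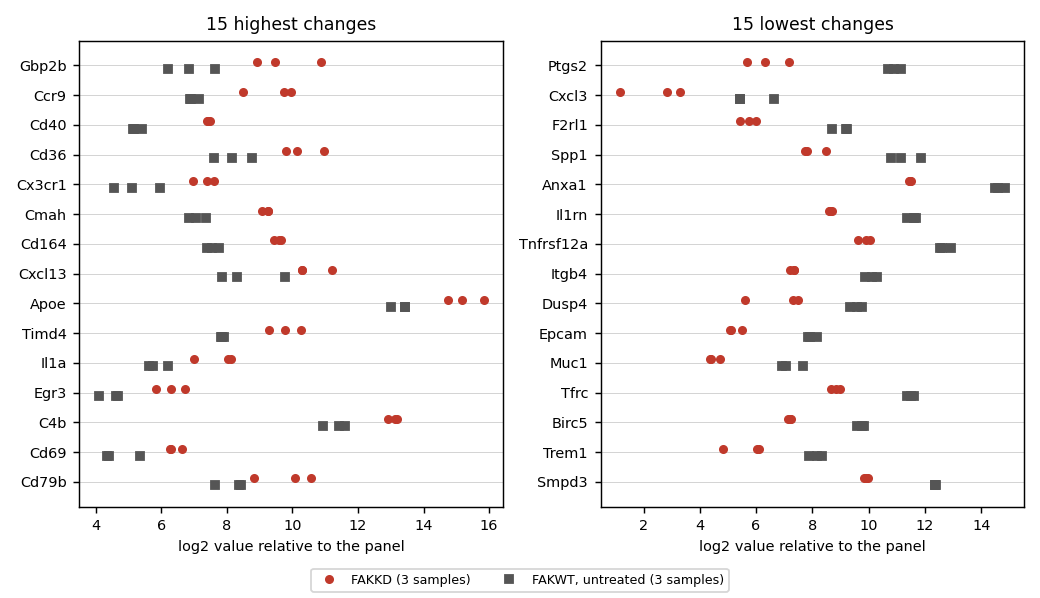
Log2 values relative to the panel (horizontal axes) of the 15 genes with the highest and the 15 with the lowest relative log2 fold change among genes called on both scales, chosen so that the groups do not overlap. Red circles are the 3 FAKKD samples and grey squares the 3 untreated FAKWT samples. FAKKD points of Cd40, Cd164, Anxa1, Il1rn, Itgb4, Birc5 and Smpd3 lie close together, and those of Gbp2b, Cxcl3 and Dusp4 are spread.

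B-cell genes were higher, 19 of 25 relative to the panel with 0 lower, a median of 0.96, and all 25 higher as deposited. The shares over all genes were 23.6% higher and 34.5% lower relative to the panel, and 65.1% and 9.47% as deposited. Cd79b, a chain of the B-cell receptor, had 10.09, 8.84 and 10.57 in FAKKD samples, against 7.63, 8.37 and 8.43 in FAKWT samples (1.69 ± 0.38, adjusted p = 0.00223). FAKKD replicate 4 exceeded the highest FAKWT sample by little. The CD20 gene Ms4a1 showed the same order, with 10.38, 9.33 and 10.71 in FAKKD samples, against 8.10, 8.45 and 8.95 in FAKWT samples (1.64 ± 0.35).

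The pan-leukocyte tetraspanin Cd37 (1.23 ± 0.14), the plasma cell factor Irf4 (1.33 ± 0.22) and the kinase Btk (0.56 ± 0.10) were higher. Between 13 and 20 of the 25 were higher when each sample was left out in turn, and 17 to 21 under the other scalings. Cxcl13, the chemokine that draws B cells, had 10.28, 10.28 and 11.22 in FAKKD samples, against 7.85, 9.76 and 8.30 in FAKWT samples (1.96 ± 0.52, adjusted p = 0.00601), with FAKWT replicate 2 close to the FAKKD samples. Ccr9, a homing receptor of lymphocytes and plasmacytoid dendritic cells, had 9.74, 9.96 and 8.50 in FAKKD samples, against 6.89, 6.90 and 7.14 in FAKWT samples (2.43 ± 0.30, adjusted p = 1.91e-05).

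T-cell genes were higher to a smaller extent, 14 of 29 relative to the panel with 2 lower, and a median of 0.52, and 28 were higher and 0 lower as deposited. For all genes the shares were 23.6% higher and 34.5% lower relative to the panel, and 65.1% and 9.47% as deposited. The 14 became 9 without FAKKD replicate 3, 8 without FAKKD replicate 4 and 9 without FAKWT replicate 1, and the 2 lower became 1 without FAKKD replicate 3 or 4 or FAKWT replicate 2 or 3. The CD3 chain Cd3d had 6.02, 6.13 and 5.65 in FAKKD samples, against 4.94, 4.90 and 4.85 in FAKWT samples (1.04 ± 0.25, adjusted p = 0.00337), with recovered counts of 26 to 66 over the 6 samples. The kinase Lck (1.30 ± 0.30) and the surface protein Thy1 (1.23 ± 0.26) were higher, and Tcf7, a factor of naive and memory T cells, was lower relative to the panel (-1.02 ± 0.17) and did not pass as deposited (0.03). The summed T-cell level overlapped, at 12.05 to 12.26 in FAKKD samples and 11.94 to 12.19 in FAKWT samples.

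Cytotoxic and NK genes were counted too rarely for most to be read, since 20 of 35 had a mean recovered count under 20, and 3 were higher and 2 lower. With the upper-gene shift 8 were higher and 0 lower, with the shift by the mean 6 and 0, and as deposited 25 and 0. Over all genes the shares were 23.6% higher and 34.5% lower (65.1% and 9.47% as deposited), so 3 and 2 of 35 lay below them. The 3 higher became 5 without FAKKD replicate 5, and the 2 lower became 0 without FAKKD replicate 3 or 5 or FAKWT replicate 2 and 1 without any of the other 3 samples. The NK receptor Klra7 was counted 21, 22 and 15 times in FAKKD samples, against 4, 2 and 3 times in FAKWT samples. Interferon gamma (Ifng) was counted 12, 12 and 13 times in FAKKD samples, against 16, 18 and 25 times in FAKWT samples, and its relative log2 fold change of -0.75 ± 0.28 passed narrowly (adjusted p = 0.0375). That call was lost without FAKKD replicate 3, 4 or 5 and without FAKWT replicate 2 or 3, with values from -0.91 to -0.53. Of 32 regulatory and helper T-cell genes 4 were higher and 8 lower, against 7 and 3 with the upper-gene shift and 26 and 0 as deposited. The shares of 4 and 8 of 32 lay below those of all genes (23.6% higher, 34.5% lower).

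Dendritic cell genes gave 5 of 23 higher, a share near the 23.6% of all genes, and 2 lower. With the upper-gene shift 9 were higher, and 18 as deposited. The maturation marker Cd83 (1.16 ± 0.14) and the transcription factor Irf8 (1.28 ± 0.17) were among the 5. For mast cells and eosinophils 6 of 14 were higher and 1 lower (9 and 0 as deposited), and 2 were lower without FAKWT replicate 2. The 9 of 14 were a share near the 65.1% of all genes that were higher as deposited. Relative to the panel 23.6% of all genes were higher and 34.5% lower. The mast cell chymase Cma1 had 11.87, 11.56 and 12.75 in FAKKD samples, against 9.64, 10.36 and 11.28 in FAKWT samples, a wide spread in both groups and a gap that just kept them apart (1.63 ± 0.59, adjusted p = 0.0312). The eosinophil chemokine Ccl24 fell by 1.09 relative to the panel and did not pass as deposited (-0.04, adjusted p = 0.802).

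Stromal and vascular genes gave 6 higher and 8 lower of 23, shares near the 23.6% and 34.5% of all genes. The counts were 6 and 6 with the upper-gene shift and 13 and 4 as deposited. The basement membrane collagen Col4a1 had 6.84, 6.91 and 6.97 in FAKKD samples, against 9.26, 9.30 and 9.18 in FAKWT samples (-2.34 ± 0.11, adjusted p = 1.55e-08). The fibrillar collagen Col3a1 had 9.40, 9.72 and 9.0 in FAKKD samples, against 7.49, 7.79 and 7.95 in FAKWT samples (1.63 ± 0.25, adjusted p = 1.10e-04). The groups did not overlap for either collagen, in opposite directions. The lymphatic growth factor Vegfc (-2.43 ± 0.19), the vascular growth factor Vegfa (-1.66 ± 0.21) and the angiopoietin receptor Tek (-1.80 ± 0.15) were lower on both scales, and Pecam1, an endothelial and leukocyte adhesion molecule, was higher (1.23 ± 0.22). The endothelial cadherin Cdh5 was counted 13 to 19 times per sample and did not pass (-0.38, adjusted p = 0.338).

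Interferon response genes did not share a direction, with 8 of 45 higher, 12 lower and a median of -0.12. All genes together were alike in this, with 23.6% higher, 34.5% lower and a median of -0.10. The 12 lower became 7 without FAKKD replicate 3, and with the upper-gene shift 15 were higher and 5 lower, with a median of 0.20. As deposited 35 were higher and 2 lower, against 65.1% and 9.47% of all genes. The exonuclease Isg20 had 9.27, 9.38 and 9.10 in FAKKD samples, against 11.84, 11.40 and 11.57 in FAKWT samples (-2.35 ± 0.13, adjusted p = 4.58e-08). Oasl1, of the oligoadenylate synthetase-like family, was lower (-2.15 ± 0.22). The interferon-induced GTPase Gbp2b had 9.46, 10.86 and 8.92 in FAKKD samples, against 6.85, 7.63 and 6.20 in FAKWT samples, spread over more than 1 log2 unit in each group (2.86 ± 0.57, adjusted p = 8.76e-04).

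Of 29 suppressive mediators 17 were lower and 4 higher, against 11 and 6 with the upper-gene shift and 5 and 17 as deposited. Over all genes 34.5% were lower and 23.6% higher (9.47% and 65.1% as deposited). Smad3, a transcription factor of TGF-beta signalling, had 9.54, 9.47 and 9.47 in FAKKD samples, against 10.89, 10.74 and 10.86 in FAKWT samples, lower on both scales (-1.34 ± 0.11, and -0.29 as deposited). The galectin gene Lgals3 was lower relative to the panel (-1.31 ± 0.18) and did not pass as deposited (-0.26, adjusted p = 0.122). Cybb, the catalytic subunit of the phagocyte oxidase, was higher (1.16 ± 0.11). Of 19 cell death and TNF ligand genes 12 were lower and 2 higher, against 8 and 2 with the upper-gene shift and 5 and 7 as deposited. The shares over all genes were again 34.5% lower and 23.6% higher (9.47% and 65.1% as deposited). The survival gene Bcl2l1 was lower on both scales (-1.61 ± 0.14, and -0.56 as deposited).

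Of 45 chemokine and lymphoid organisation genes 16 were higher and 12 lower (31 and 2 as deposited), the chemokine Cxcl16 among the lower (-1.44 ± 0.18). Among all genes 23.6% were higher and 34.5% lower (65.1% and 9.47% as deposited). Of 27 Toll-like and pattern receptors 12 were higher and 11 lower (22 and 1 as deposited), and the 11 became 7 without FAKWT replicate 1 and 6 with the upper-gene shift. The fungal glucan receptor Clec7a had 9.28, 9.80 and 9.58 in FAKKD samples, against 7.72, 8.65 and 7.84 in FAKWT samples (1.48 ± 0.21). The endosomal RNA receptor Tlr7 was also higher (1.20 ± 0.20). The flagellin receptor Tlr5 was lower on both scales (-1.65 ± 0.20, and -0.60 as deposited). The lipopolysaccharide receptor Tlr4 was lower relative to the panel (-1.08 ± 0.15) and did not pass as deposited (-0.03, adjusted p = 0.781).

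**Figure D3:**
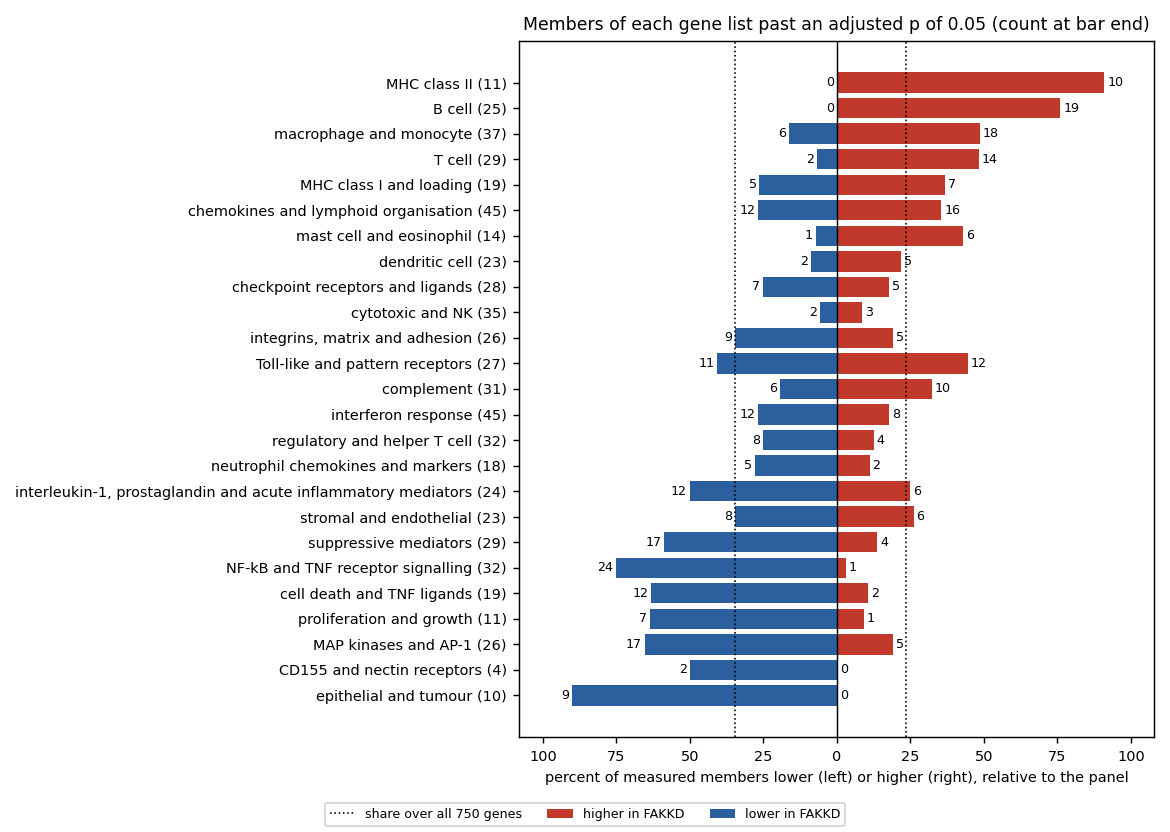
For each of 25 gene lists, the percent of measured members lower (blue, left) and higher (red, right) in FAKKD relative to the panel at an adjusted p of 0.05, with the number of measured members in brackets and the count at each bar end. Dotted lines mark the shares over all 750 genes, 34.5% lower and 23.6% higher. MHC class II (10 of 11) and B cell (19 of 25) reach far past the line for higher genes, and epithelial and tumour (9 of 10) and NF-kB and TNF receptor signalling (24 of 32) past the line for lower genes. As deposited 19 of those 32 were higher and 5 lower.

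The 3 FAKKD samples were not alike in every gene. Replicates 4 and 5 differed by over 1 log2 unit in 72 genes with a mean count of at least 20, against 28 for replicates 3 and 4 and 24 for replicates 3 and 5, while FAKWT pairs differed so in 21 to 36 genes. The SD exceeded 0.5 in 90 genes among FAKKD samples and in 64 among FAKWT samples. In those 90 genes replicate 4 was the highest in 50, replicate 5 in 33 and replicate 3 in 7. The neutrophil granule gene Mpo had 5.06, 4.41 and 8.92 in FAKKD samples, with replicate 5 far above the others, against 5.16, 3.79 and 4.40 in FAKWT samples. The elastase gene Elane (4.37, 3.86 and 7.39) and the calprotectin subunit S100a8 (9.53, 9.09 and 11.57) were likewise highest in FAKKD replicate 5, and neither Mpo, Elane nor S100a8 passed the test (adjusted p = 0.385, 0.665 and 0.939).

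Among the genes that varied most, Cxcl10, a chemokine for T cells, had 5.43, 7.45 and 5.05 in FAKKD samples, against 7.21, 7.45 and 7.01 in FAKWT samples, so replicate 4 lay at the highest FAKWT value and the other FAKKD samples below all FAKWT values. Ifit3, an interferon-induced antiviral gene, had 6.14, 7.48 and 6.01 in FAKKD samples, against 5.67, 5.00 and 4.54 in FAKWT samples (1.47, adjusted p = 0.00941). Il6 was low in FAKKD replicate 5, with 9.92, 10.19 and 8.14 in FAKKD samples, against 8.28, 8.40 and 8.40 in FAKWT samples. Its relative log2 fold change of 1.06 ± 0.40 (adjusted p = 0.0368) ranged from 0.67 to 1.69 when samples were left out in turn, and the call was lost without FAKKD replicate 3 or 4 and without any of the 3 FAKWT replicates. It was 0.67 without FAKKD replicate 4 and 1.69 without FAKKD replicate 5.

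**Figure D4:**
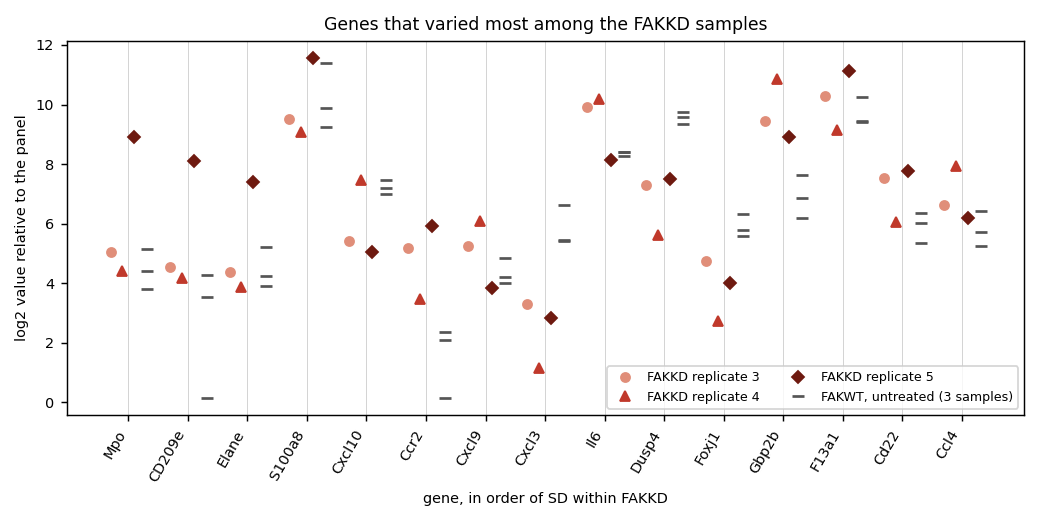
Log2 values relative to the panel (vertical axis) of the 15 genes with the largest SD among FAKKD samples, of those with a mean recovered count of at least 20. Circles, triangles and diamonds are FAKKD replicates 3, 4 and 5 and dashes the 3 untreated FAKWT samples. Replicate 5 is far above the others for Mpo, CD209e and Elane, and replicate 4 is highest for Cxcl10, Cxcl9 and Ccl4.

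For 81 genes the direction depended on the scale, all of them higher as deposited and lower relative to the panel. The 6 with the smallest relative p were the kinase Prkcd, the NF-kB adaptor Tank, the kinase Mapkapk2, the RNA-binding protein Ythdf2 and the transcription factors Creb1 and Stat3. Stat3 had relative log2 values of 10.69, 10.66 and 10.74 in FAKKD samples, against 11.64, 11.42 and 11.54 in FAKWT samples, all FAKKD values being lower (-0.84 ± 0.11, adjusted p = 4.66e-05). With quantile normalization its fold change was -0.22 and did not pass (adjusted p = 0.0711). As deposited it was higher by 0.21 (adjusted p = 0.0482), a call lost when any of FAKKD replicates 3, 4 and 5 or FAKWT replicates 1 and 2 was left out. Prkcd was -0.76 relative to the panel and 0.29 as deposited, and the other 4 ran from -0.83 to -0.77 relative to the panel and from 0.22 to 0.28 as deposited.

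The FAKKD difference was set against that of the FAK inhibitor, which has its own vehicle samples (FAKWT by title, although their genotype label reads FAKKD), by testing the difference between the 2 fold changes. That test passed for 195 genes (26%), with the FAKKD fold change above the inhibitor's in 84 and below it in 111. Of the genes called in both comparisons relative to the panel, 97 were higher in both and 168 lower in both. Only 8 were higher in FAKKD and lower with the inhibitor, and 10 the reverse. Mesothelin (Msln) had the lowest difference. Its relative log2 fold change was -2.12 in FAKKD against FAKWT and 0.11 with inhibitor against vehicle, a difference of -2.23 ± 0.14 (adjusted p = 1.75e-06). E-cadherin (Cdh1) also differed, with -1.96 in FAKKD and 0.08 with the inhibitor (difference -2.04 ± 0.38, adjusted p = 0.00277). Vegfa (-1.66 in FAKKD, -0.13 with the inhibitor) and the complement protease C1s1 (-1.19 in FAKKD, 0.61 with the inhibitor) also differed, and Cd160, an NK and T-cell receptor, had 0.28 in FAKKD and 1.80 with the inhibitor. Pvr had -2.24 in FAKKD and -1.23 with the inhibitor (difference -1.0 ± 0.24, adjusted p = 0.00882), and Pvrl2 -1.74 and -0.74 (difference -1.0 ± 0.17, adjusted p = 0.00196).

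In the other direction, Il6 had 1.06 in FAKKD and -2.27 with the inhibitor, a difference of 3.32 ± 0.56 (adjusted p = 0.00173). The tryptophan dioxygenase Tdo2 had 0.45 in FAKKD and -2.68 with the inhibitor (difference 3.13 ± 0.38, adjusted p = 4.98e-04). Gbp2b (2.86 in FAKKD, -0.27 with the inhibitor), the chitinase-like Chil3 (-0.79 in FAKKD, -4.20 with the inhibitor) and the interferon-induced Ifi44 (0.86 in FAKKD, -1.29 with the inhibitor) differed as well. Chil3 did not pass in FAKKD by itself, at 9.14, 8.55 and 9.10 in FAKKD samples and 10.02, 8.30 and 10.84 in FAKWT samples (adjusted p = 0.409). Survivin fell in both settings and by more with the inhibitor (Birc5, -2.55 in FAKKD and -4.23 with the inhibitor, difference 1.69 ± 0.24, adjusted p = 9.04e-04). The test of the difference passed for 4 of 10 epithelial and tumour genes and for 0 of 29 T-cell genes, against 26% of all genes.

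**Figure D5:**
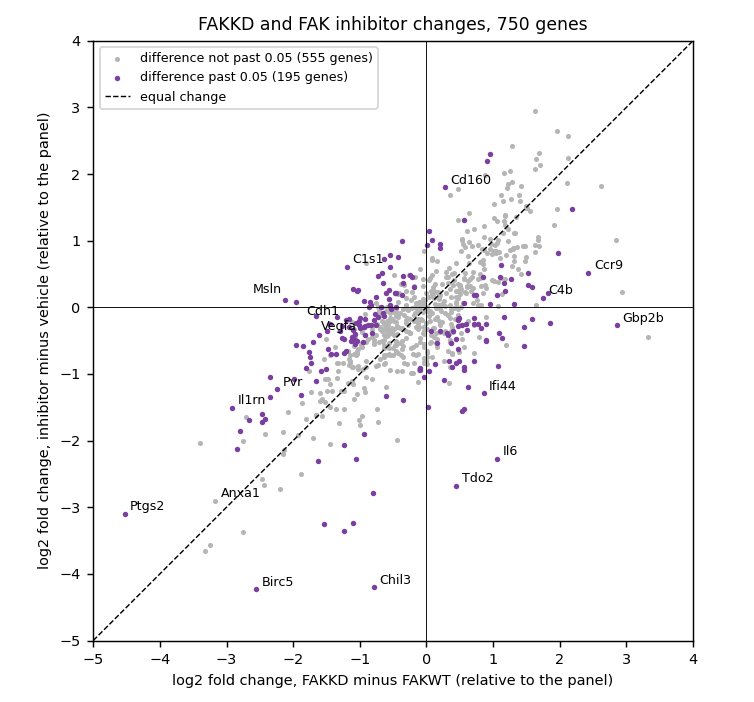
Log2 fold change relative to the panel of FAKKD minus untreated FAKWT (horizontal axis) against that of inhibitor minus vehicle (vertical axis), with 1 point for each of 750 genes. Purple points are the 195 genes whose 2 fold changes differed in limma at an adjusted p of 0.05, and the dashed line marks equal change. Msln, Cdh1 and Vegfa lie left of the line near 0 for the inhibitor, and Il6 and Tdo2 lie right of it.

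All tests were moderated tests in limma over 750 genes. Whether samples of 1 group were taken from different animals is not stated in the labels, so p-values measure only the spread between samples. That spread was taken within the 4 groups of all 12 samples and moderated over genes. With 3 against 3 samples an exact permutation test of a single gene cannot give a two-sided p under 0.1.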

How the data were processed

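The deposited table holds log2 values that the authors had normalized, per the labels and the values themselves, and no source used here names the software, the background correction or the normalization genes. Per the labels' design text the panel has 770 genes, and 750 were analysed here. Because 2 raised to a deposited log2 value was a whole number times 1 factor per sample for 100% of values (tolerance 0.01), counts were recovered and used only to describe depth. Samples were grouped by title, and the genotype field of the vehicle samples names FAKKD where their titles name FAKWT.

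Values were analysed as deposited and after each sample's median was shifted to the mean of the 12 medians. The 12 samples were fitted together, with 1 mean for each of 4 groups, in limma 3.58.1 (R 4.3.3; lmFit, contrasts.fit, eBayes with trend), with Benjamini-Hochberg adjustment over 750 genes and a threshold of 0.05. Errors of fold changes are standard errors. No value was filtered and no pseudocount was added. The fitting step was tested on simulated data.

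The members and the 25 gene lists (550 measured genes, 69 on several lists) were chosen with earlier results of these data known. Genes were named by rule: the 15 highest and 15 lowest relative fold changes among non-overlapping genes called on both scales outside the lowest 25% by level, up to 4 members with the smallest p in each list, 6 genes called in opposite directions, 5 at each end of the difference from the inhibitor, and the measured CD155 and nectin genes. Further list members, the genes with the largest SD within FAKKD and genes repeated for comparison were added after their values were seen. A list's summed level is the log2 of its summed linear values relative to the panel.

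Of 750 symbols 736 matched a RefSeq symbol (GRCm38.p6), 8 a synonym and 6 nothing. Promoters come from RefSeq and covered 554 panel genes. Alternatives were other scalings (quantile normalization and shifts by the mean, by the median without the lowest 25% of genes, and by total counts), a filter on low genes, no trend, the 6 samples only, pooled controls, a threshold of 0.1 and leaving out each sample. Figures were drawn with matplotlib 3.10.9. Some genes that the rule names are not described, and a few genes are not reported here.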

Additional observations from a re-analysis of the deposited data

How the results depend on the processing

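Counts of called genes stayed within 1.5 times under every alternative run relative to the panel, with 161 to 243 higher and 187 to 271 lower in FAKKD, and with 151 to 172 higher and 237 to 250 lower when each sample was left out in turn. As deposited, leaving out samples gave 447 to 500 higher and 66 to 72 lower, and quantile normalization, which removes the shift between the groups, gave 198 higher and 219 lower in place of 488 and 71. Under that normalization 16 named genes that were positive as deposited turned negative, namely Tigit (-1.0), Cd96 (-0.00), Cd99 (-0.47), Tapbp (-0.53), Psmb10 (-0.48), Tcf7 (-0.75), Ifng (-0.71), Stat3 (-0.22), Bcl6 (-1.07), Irf3 (-0.52), Cd47 (-0.53), Prkcd (-0.19), Tank (-0.47), Mapkapk2 (-0.38), Ythdf2 (-0.42) and Creb1 (-0.41). Relative to the panel, outside the runs that left out a sample, calls were lost for Ifng (-0.43 with the upper-gene shift, -0.62 with the shift by the mean, -0.71 by total counts and -0.75 with the 6 samples alone), for Stat3 (-0.22 with quantile normalization) and for Il6 (0.70 against untreated and vehicle FAKWT together, 1.06 without the trend and with the 6 samples alone), and the cause was not tested. Calls were also gained, among them that of Tigit, which passed as lower with quantile normalization, the filter on low genes, the 6 samples alone and pooled controls. The shift by the total of recovered counts (185 higher, 247 lower) was added after seeing the data. No paired analysis was possible because FAKKD and untreated FAKWT samples share a single replicate number. Counting error limits most the 142 genes whose recovered counts averaged under 20, most cytotoxic and NK genes among them.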
